A study of Homo sapiens with 8 samples.

Results

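The genes described here are 6 members of the machinery by which islet cells sense glucose: G6PC2, SLC2A2, GCKR, SLC2A1, ABCC8 and KCNJ11. They were chosen by name, with earlier results of these data known. The genes were matched to Ensembl identifiers by symbol, and are 6 of the 38592 genes in the deposited gene table. All 6 passed the filter on low counts. The study used H1, an established line of human embryonic stem cells, differentiated in culture to islet-like cells. The cells were either unedited (WT) or lacked 1 of 3 genes for homeodomain transcription factors of islet cells: PAX6, PDX1 or ISL1 (knockout, KO). On day 11 every culture was transduced, either with a vector encoding ISL1 and blue fluorescent protein joined by an IRES2 element (ISL1 OE) or with a vector for the fluorescent protein alone (BFP), and on day 18 RNA was taken. Both WT groups had 2 libraries, as did PDX1 KO with the ISL1 vector. The other 5 groups, 3 with BFP and 2 with the ISL1 vector, had 3 libraries each. The series calls the replicates biological, but nothing says that they were separate cultures, so p-values measure the spread between these libraries, which may be technical. How many clones stood behind each line and which promoter drove the vector are not given in the sources used here.

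Beta cells take up glucose through facilitative transporters, phosphorylate it in a step whose rate follows the glucose concentration, and burn it to raise the ratio of ATP to ADP. SLC2A2 (GLUT2) is the low-affinity transporter of liver and rodent beta cells, and SLC2A1 (GLUT1) is the widely expressed high-affinity transporter that human beta cells also use. G6PC2 is the islet member of the glucose-6-phosphatase family and removes the phosphate again, and GCKR is the regulatory protein that holds the glucose-phosphorylating enzyme of liver in an inactive state. ABCC8 (SUR1, the sulfonylurea receptor) and KCNJ11 (Kir6.2, the pore) form the ATP-sensitive potassium (KATP) channel, whose closure by ATP depolarises the membrane and starts insulin release.

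G6PC2, SLC2A2 and GCKR were the members called lower in all 3 knockouts, so the sequence before each of their start sites is shown. It comes from RefSeq promoter windows (GRCh38.p14, 250 bases before to 50 after the start), trimmed to the part before every annotated exon of the gene. Capitals mark TAAT on either strand (ATTA when read on the other), the core letters that homeodomain proteins bind. The G6PC2 stretch lies on the plus strand at chr2:168901041-168901239, the SLC2A2 stretch on the minus strand at chr3:171026751-171026970 and the GCKR stretch on the plus strand at chr2:27496589-27496841.
G6PC2: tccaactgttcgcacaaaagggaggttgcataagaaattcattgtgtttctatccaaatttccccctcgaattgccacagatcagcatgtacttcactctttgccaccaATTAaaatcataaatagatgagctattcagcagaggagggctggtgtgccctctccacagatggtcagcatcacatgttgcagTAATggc
SLC2A2: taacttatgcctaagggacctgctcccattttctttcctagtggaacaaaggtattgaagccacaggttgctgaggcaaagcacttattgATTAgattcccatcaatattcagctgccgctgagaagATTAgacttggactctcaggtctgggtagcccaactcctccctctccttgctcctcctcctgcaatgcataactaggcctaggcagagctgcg
GCKR: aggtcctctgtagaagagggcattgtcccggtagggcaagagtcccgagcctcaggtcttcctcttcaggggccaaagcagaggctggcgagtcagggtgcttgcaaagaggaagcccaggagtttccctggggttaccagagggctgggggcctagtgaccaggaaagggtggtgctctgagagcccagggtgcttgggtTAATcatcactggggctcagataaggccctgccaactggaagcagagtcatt
Of the 6 members, 4 matched an entry in the promoter table: these 3 and SLC2A1. In the whole 300-base windows TAAT was found 2 times for G6PC2, 2 times for SLC2A2, 1 time for GCKR and 0 times for SLC2A1. It occurs in 50.2% of the 35116 promoter windows searched. The E-box CANNTG, searched on both strands, was found 4 times for G6PC2, 3 times for SLC2A2, 1 time for GCKR and 0 times for SLC2A1, and 68.7% of all windows hold it. A TATAAA was found 1 time each for G6PC2 and SLC2A1, and 11.5% of windows hold one. These matches describe letters in a window and were not tested as binding sites.

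Libraries held 40959467 to 66818614 counts and 24721 to 27304 detected genes. ISL1 RNA was 384 ± 141 CPM (read counts scaled to library size with TMM factors, mean ± SD) in WT BFP (n = 2) and 67.5 ± 3.88 in ISL1 KO BFP (n = 3). The ISL1 OE label did not go with a detected rise of ISL1 RNA. Its log2 fold changes against BFP were −0.27 ± 0.42 (SE) for WT, 0.11 ± 0.34 for ISL1 KO, 0.15 ± 0.34 for PAX6 KO and 0.54 ± 0.38 for PDX1 KO, and the lowest edgeR adjusted p was 0.341. The vector comparisons below are therefore between libraries labelled ISL1 OE and BFP. PAX6 KO ISL1 OE replicate 3 and the 2 PDX1 KO ISL1 OE libraries stood apart: the lowest correlation of log2 CPM within a group was 0.927 and 0.900 there and at least 0.982 elsewhere. Replicate 4 of PDX1 KO ISL1 OE held 44875 CPM of the insulin gene INS and replicate 2 held 324. The column names place 5 libraries on lanes 5 to 8 and 16 on lanes 1 to 4. Pan-endocrine markers such as CHGA summed to 10720 to 47239 CPM in every library, and the 10 liver-type marker genes, also abundant, to 3931 to 25040 CPM. In bulk RNA, fewer cells of a type and less RNA per cell cannot be told apart.

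Per unit length, ABCC8 was the most and GCKR the least abundant of the 6 genes in WT BFP. ABCC8 had 349.7 ± 63.8 TPM (transcript abundance scaled for length and depth, n = 2), followed by SLC2A1 at 101.3 ± 16.4, G6PC2 at 55.8 ± 4.66, KCNJ11 at 23.05 ± 0.852, SLC2A2 at 12.8 ± 0.149 and GCKR at 2.13 ± 0.235. The sulfonylurea receptor RNA thus exceeded that of its pore partner, and the GLUT1 gene that of the GLUT2 gene. GCKR had as few as 22 counts in a library, where ABCC8 had 8848 or more, so its values carry more counting error.

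**Figure D1:**
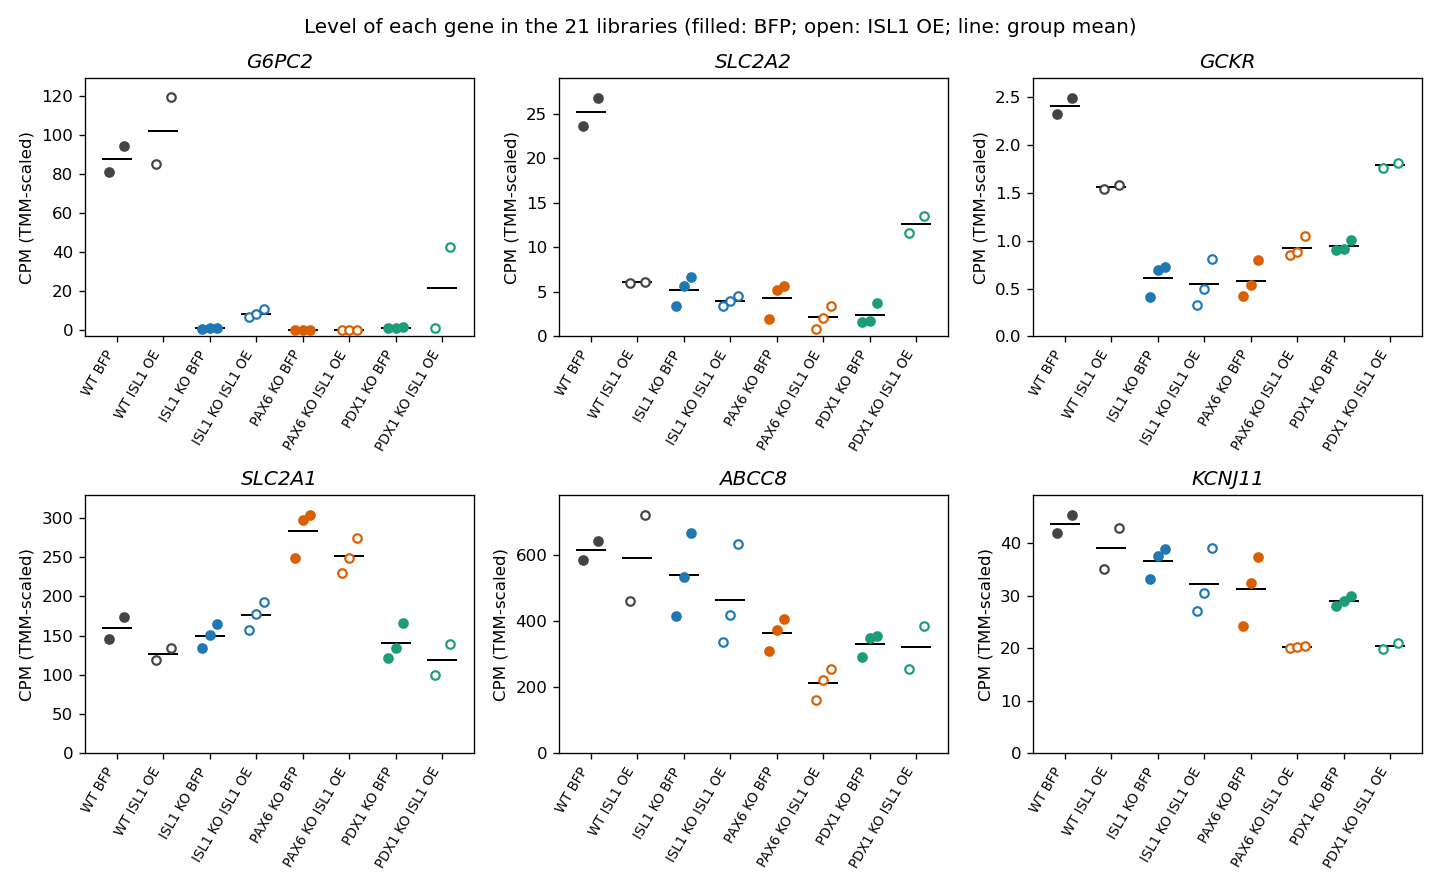
Level of each of the 6 genes in CPM (vertical axis, linear) in the 8 groups (horizontal axis). Each point is a library (filled for BFP, open for ISL1 OE), ordered by value within its group, and the line is the group mean; G6PC2 lay between 81.1 and 119.7 CPM in the 4 WT libraries and at or below 42.8 CPM in every other library.

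G6PC2 RNA was abundant in WT and nearly lost in each knockout. G6PC2 (ENSG00000152254, GRCh38 chromosome 2, 168901240 to 168910000, plus strand) had 81.1 and 94.6 CPM in the WT BFP libraries. In ISL1 KO BFP it had 0.954, 1.14 and 1.41 CPM, and in PDX1 KO BFP 1.16, 1.81 and 1.34 CPM. In PAX6 KO BFP it had 0 counts in all 3 libraries. No knockout BFP library came near the WT range. The fall was −6.23 ± 0.91 on the log2 scale in ISL1 KO (edgeR adjusted p = 0.000859) and −5.93 ± 0.90 in PDX1 KO (adjusted p = 0.000938). With 0 counts in PAX6 KO against 7528 in WT BFP, the level there was at least 5074-fold lower, taking 3 counts over the group as the floor (adjusted p = 8.55e-05). SPC25, a kinetochore gene on the opposite strand, overlaps G6PC2, and this chemistry does not mark strand. SPC25 had 3.92 to 8.49 CPM in the PAX6 KO BFP libraries in which G6PC2 had 0 counts.

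SLC2A2, the GLUT2 gene, was also lower in every knockout. SLC2A2 (ENSG00000163581, chromosome 3, 170996348 to 171026750, minus strand) had 23.6 and 26.8 CPM in WT BFP. It had 5.64, 6.64 and 3.41 CPM in ISL1 KO BFP, 1.97, 5.64 and 5.21 CPM in PAX6 KO BFP and 3.78, 1.72 and 1.64 CPM in PDX1 KO BFP. All 9 knockout BFP libraries lay below both WT libraries. The log2 fold changes were −2.27 ± 0.50 in ISL1 KO (edgeR adjusted p = 0.0110), −2.56 ± 0.50 in PAX6 KO (0.00626) and −3.40 ± 0.51 in PDX1 KO (0.000658). The PDX1 KO call held when any 1 library was left out. The ISL1 KO call was lost without WT BFP replicate 1 (adjusted p = 0.0518), WT BFP replicate 3 (0.0750) or ISL1 KO BFP replicate 3 (0.0660), and the PAX6 KO call without WT BFP replicate 3 (0.0570), with fold changes of −2.78 to −2.03 on the log2 scale throughout. With limma on TPM the ISL1 KO and PAX6 KO calls were lost as well (adjusted p = 0.114 and 0.0666).

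GCKR, the inhibitory partner of glucose phosphorylation in liver, fell too, from a low level. GCKR (ENSG00000084734, chromosome 2, 27496842 to 27523684, plus strand) had 2.32 and 2.50 CPM in WT BFP. It had 0.695, 0.722 and 0.416 CPM in ISL1 KO BFP, 0.798, 0.534 and 0.419 CPM in PAX6 KO BFP and 0.917, 1.01 and 0.900 CPM in PDX1 KO BFP. Again no knockout BFP library reached the WT range. Its log2 fold changes were −1.98 ± 0.35 in ISL1 KO (edgeR adjusted p = 0.00270), −2.05 ± 0.35 in PAX6 KO (0.00285) and −1.35 ± 0.35 in PDX1 KO (0.0182). The PDX1 KO call was lost whenever any of the 5 libraries was left out (adjusted p = 0.0502 to 0.11). On the TPM scale none of the 3 passed: limma gave −1.39 in ISL1 KO (adjusted p = 0.0536), −1.06 in PAX6 KO (0.127) and −0.22 in PDX1 KO (0.783). In PDX1 KO BFP the share of GCKR counts on the coding transcript GCKR-201 was 52.6%, against 81.8% in WT BFP.

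SLC2A1, the GLUT1 gene, was higher in PAX6 KO. SLC2A1 (ENSG00000117394, chromosome 1, 42925375 to 42959176, minus strand) had 173 and 145 CPM in WT BFP and 297, 249 and 304 CPM in PAX6 KO BFP. The groups did not overlap, and the log2 fold change was 0.83 ± 0.20 (edgeR adjusted p = 0.0224). In ISL1 KO BFP it had 150, 135 and 165 CPM and in PDX1 KO BFP 167, 134 and 121.4 CPM, ranges that overlap WT. Those fold changes were −0.09 (95% interval −0.51 to 0.33, adjusted p = 0.873) and −0.18 (−0.60 to 0.24, adjusted p = 0.660). The PAX6 KO call was lost without WT BFP replicate 1 (0.0932), WT BFP replicate 3 (0.215), PAX6 KO BFP replicate 1 (0.0774) or PAX6 KO BFP replicate 3 (0.0787), while the fold change was 0.735 to 0.996, and with limma on TPM (1.21, adjusted p = 0.0602). SLC2A1-AS1 on the opposite strand had 0.598 to 1.19 CPM in PAX6 KO BFP. Epsilon cell markers (GHRL and MBOAT4) summed to 81.1 to 91.5 CPM in WT BFP and 2520 to 3681 CPM in PAX6 KO BFP, with 2 of 2 called higher. Enterochromaffin-like markers (5 genes, TPH1 among them) summed to 717 to 843 CPM and 1116 to 1818 CPM, with 2 of 5 called higher. They were higher still in ISL1 KO BFP (1872 to 2593 CPM) and PDX1 KO BFP (2941 to 3434 CPM), where SLC2A1 overlapped WT. A list of 8 hypoxia markers summed to 710 to 770 CPM in PAX6 KO BFP and 1277 to 1536 CPM in WT BFP, with 0 of 8 called (3 at an unadjusted p under 0.05). The part of these genes in the SLC2A1 values was not tested.

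The KATP channel genes were lower in PAX6 KO and PDX1 KO without passing the test. ABCC8 (ENSG00000006071, chromosome 11, 17392498 to 17476879, minus strand) had 642 and 584 CPM in WT BFP, 416, 534 and 665 CPM in ISL1 KO BFP, 373, 308 and 407 CPM in PAX6 KO BFP and 353, 292 and 349 CPM in PDX1 KO BFP. PAX6 KO and PDX1 KO libraries lay wholly below WT, and ISL1 KO libraries overlapped it. The ABCC8 fold changes were −0.89 ± 0.29 in PDX1 KO, −0.76 ± 0.29 in PAX6 KO and −0.19 ± 0.29 in ISL1 KO on the log2 scale (edgeR adjusted p = 0.0593, 0.138 and 0.802). KCNJ11 (ENSG00000187486, chromosome 11, 17385859 to 17389331, minus strand) lies 3166 bases from ABCC8 and has the same orientation. It had 41.9 and 45.5 CPM in WT BFP, 37.5, 33.3 and 38.9 CPM in ISL1 KO BFP, 32.5, 24.3 and 37.4 CPM in PAX6 KO BFP and 29.9, 28.0 and 29.02 CPM in PDX1 KO BFP. All 9 KCNJ11 values in CPM were below both WT values. In TPM, ISL1 KO BFP (21.5 to 24.9) and PAX6 KO BFP (16.7 to 23.9) overlapped WT BFP (22.4 to 23.6), and PDX1 KO BFP (16.8 to 18.6) lay below it. The KCNJ11 fold changes were −0.59 ± 0.20 in PDX1 KO, −0.48 ± 0.20 in PAX6 KO and −0.26 ± 0.20 in ISL1 KO on the log2 scale (edgeR adjusted p = 0.0626, 0.170 and 0.519). In PDX1 KO both subunits passed with DESeq2 (adjusted p = 0.0285 for ABCC8 and 0.0170 for KCNJ11) and in an edgeR fit of these groups alone (0.00133 and 0.00587). In PAX6 KO ABCC8 passed in such a fit (0.00923) and KCNJ11 did not (0.109).

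**Figure D2:**
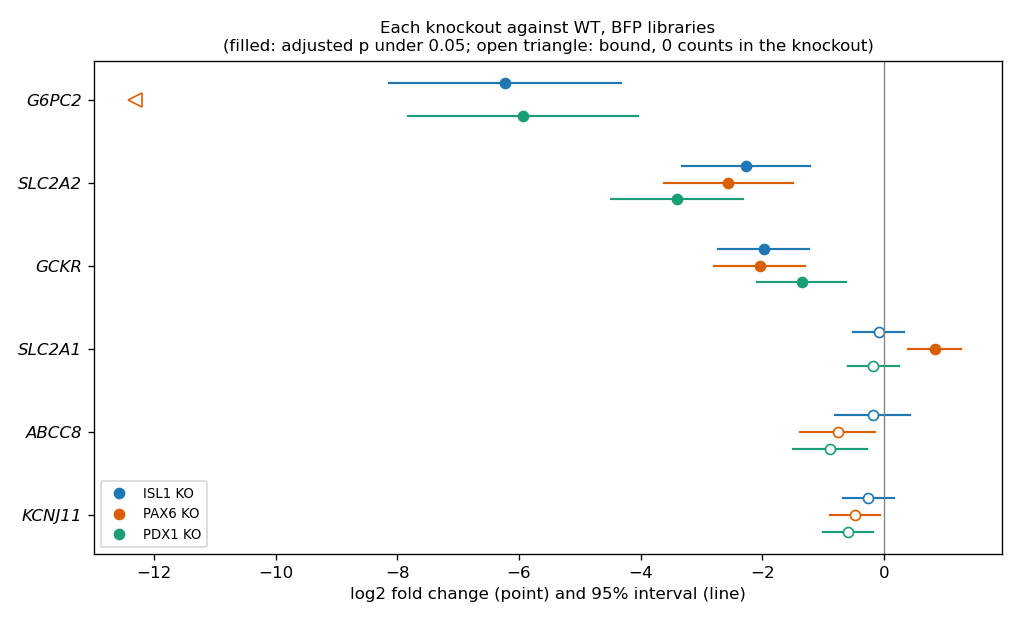
log2 fold change of each gene (horizontal axis) in ISL1 KO, PAX6 KO and PDX1 KO BFP libraries (n = 3 each) against WT BFP (n = 2), with 95% intervals as lines and filled points at an adjusted p under 0.05. The open triangle is the bound for G6PC2 in PAX6 KO at −12.3, and every interval for G6PC2, SLC2A2 and GCKR lies below 0.

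Counted together, 3 of the 6 genes were called lower and 0 higher in ISL1 KO, where 6.53% of the 22184 genes tested were called in either direction. In PAX6 KO 3 were lower and 1 higher, against 6.65% of all genes called, and in PDX1 KO 3 were lower and 0 higher, against 11.4%. Because the 6 genes were chosen with earlier results of these data known, the share of all genes called is no test of the list. All 3 knockout comparisons share the same 2 WT BFP libraries, replicate 1 on lanes 5 to 8 and replicate 3 on lanes 1 to 4. Within lanes 1 to 4, which leaves 1 WT BFP library, SLC2A2 was at −2.41, −2.30 and −3.28 and GCKR at −2.13, −2.39 and −1.37 on the log2 scale in ISL1 KO, PAX6 KO and PDX1 KO. There G6PC2 was at −6.21 in ISL1 KO and −5.99 in PDX1 KO, and G6PC2 in PAX6 KO was the 1 member called (adjusted p = 0.0255, edgeR).

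Like SLC2A2 and GCKR, the liver-type markers were lower in the knockouts. Their summed level was 16843 to 19207 CPM in WT BFP, 6819 to 9798 in ISL1 KO BFP, 5420 to 7585 in PAX6 KO BFP and 3931 to 4648 in PDX1 KO BFP. The SLC2A2 means of these knockout groups fell in the same order (5.23, 4.27 and 2.38 CPM). The GCKR means did not, at 0.611, 0.583 and 0.941 CPM. Of the 10 liver markers, 5, 8 and 9 were called lower in ISL1 KO, PAX6 KO and PDX1 KO, 0 were called higher, and none of the 10 was at 0 in any library. Beta cell markers (9 genes, INS among them) summed to 12461 to 14963 CPM in WT BFP, 3996 to 5393 in ISL1 KO BFP, 1612 to 2280 in PAX6 KO BFP and 885 to 1088 in PDX1 KO BFP, with 3, 4 and 6 of 9 called lower and 1, 0 and 1 higher. Alpha cell markers (7 genes) summed to 34594 to 49155, 420 to 491, 513 to 813 and 14409 to 18431 CPM in the same order, with 4, 2 and 3 of 7 called lower and 0, 0 and 1 higher. The WT BFP sums were mostly 1 gene each: INS had 13286 and 10443 CPM there, and the glucagon gene GCG 33913 and 48218. In ISL1 KO, PAX6 KO and PDX1 KO the median log2 fold changes were −0.24, −1.53 and −1.19 for beta markers. For alpha markers they were −1.49, −0.12 and −0.78. INS itself was called lower only in PDX1 KO (edgeR adjusted p = 0.398, 0.0782 and 0.00354). Of the 5 delta cell markers (SST among them) 4, 3 and 3 were called lower and 0, 1 and 0 higher. Of the 5 enterochromaffin-like markers 4, 2 and 5 were called higher and 0 lower, and of the 2 epsilon markers 0, 2 and 0 higher and 0 lower. The part of these cell types in the falls of G6PC2, SLC2A2 and GCKR was not tested.

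Among the knockouts, G6PC2 and SLC2A1 told PAX6 KO from the other 2 lines. G6PC2 was at least 68.8-fold lower in PAX6 KO than in ISL1 KO (edgeR adjusted p = 0.00873) and at least 85.3-fold lower than in PDX1 KO (adjusted p = 0.00522), with the floor of 3 counts over the PAX6 KO group. SLC2A1 differed the other way: it was lower by 0.92 ± 0.18 on the log2 scale in ISL1 KO than in PAX6 KO (−0.92, adjusted p = 0.00810) and higher in PAX6 KO than in PDX1 KO (1.01 ± 0.18, adjusted p = 0.00330). These made 2 of 6 members called in each of the comparisons, against 2.78% of all genes between ISL1 KO and PAX6 KO and 3.62% between PAX6 KO and PDX1 KO. All 4 calls held in edgeR when any 1 library of the groups was left out. With limma on TPM, 1 of 6 members was called in each comparison. Between ISL1 KO and PDX1 KO edgeR called 0 of 6, where 5.71% of all genes were called. SLC2A2 (1.14 ± 0.46) and ABCC8 (0.70 ± 0.27) were the 2 genes with an unadjusted p under 0.05 there, at adjusted p = 0.173 and 0.144, and DESeq2 and limma also called 0. In an edgeR fit of these groups alone 3 passed: SLC2A2 (adjusted p = 0.0383), ABCC8 (0.00916) and KCNJ11 (0.0379). G6PC2 in ISL1 KO and PDX1 KO differed by −0.30 with a 95% interval of −1.87 to 1.27.

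With the ISL1 OE label, SLC2A2 was lower in WT, G6PC2 higher in ISL1 KO, the channel genes lower in PAX6 KO and SLC2A2 higher in PDX1 KO, and of these only SLC2A2 in PDX1 KO passed the test across all genes. In WT, SLC2A2 had 6.14 and 5.95 CPM in the ISL1 OE libraries against 23.6 and 26.8 in BFP, with no overlap and a log2 fold change of −2.06 ± 0.57. Its unadjusted p was 0.00204 and its adjusted p 0.553. GCKR (1.54 and 1.59 CPM against 2.32 and 2.50) and SLC2A1 (119.2 and 135 CPM against 173 and 145) were also lower without overlap in CPM, at −0.62 ± 0.39 and −0.33 ± 0.22. In TPM both genes overlapped their BFP values. With 2 libraries in each group, a lack of overlap is common without any difference. G6PC2 (119.7 and 85.3 CPM), ABCC8 (721 and 461 CPM) and KCNJ11 (42.9 and 35.1 CPM) overlapped their BFP values. EdgeR called 0 of 6 members in WT, with 1 at an unadjusted p under 0.05, and DESeq2 and limma called 0, where 0.0361% of all genes were called. SLC2A2 did pass in a fit of these groups alone (adjusted p = 0.00423) and in a fit without PAX6 KO ISL1 OE replicate 3 and PDX1 KO ISL1 OE replicate 4 (0.0255). Liver markers summed to 9624 to 11761 CPM in WT ISL1 OE, below their WT BFP range, with 0 of 10 called.

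In ISL1 KO the gene that stood out was G6PC2. Its ISL1 OE libraries held 6.72, 10.9 and 8.46 CPM, all above the 0.954 to 1.41 CPM of ISL1 KO BFP. The log2 fold change was 2.90 ± 0.77 (unadjusted p = 0.00188, edgeR adjusted p = 0.151). By DESeq2 the adjusted p was 0.00894, and in fits of these groups alone and without PAX6 KO ISL1 OE replicate 3 and PDX1 KO ISL1 OE replicate 4 it was 0.000324 and 1.76e-05. The other 5 genes overlapped: SLC2A2 had 3.95, 4.49 and 3.46 CPM, GCKR 0.813, 0.332 and 0.497, SLC2A1 177, 157 and 193, ABCC8 335, 418 and 632, and KCNJ11 27.1, 30.5 and 39.1. EdgeR called 0 of 6 members, with 1 at an unadjusted p under 0.05, DESeq2 called 1 and limma 0, against 0.424% of all genes called. Alpha cell markers summed to 2342 to 5469 CPM in these libraries and to 420 to 491 CPM in ISL1 KO BFP, with 2 of 7 called higher. GCG alone had 2058, 2527 and 5063 CPM in the ISL1 OE libraries. Delta cell markers summed to 281 to 334 CPM against 50.4 to 80.8 CPM, with 2 of 5 called higher. Of the enterochromaffin-like markers 2 of 5 were called lower, and of the beta cell markers 1 of 9 higher. The part of these markers in the G6PC2 values was not tested.

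Set against WT BFP, ISL1 KO ISL1 OE had lower G6PC2, SLC2A2 and GCKR. G6PC2 was at −3.33 ± 0.80 on the log2 scale (edgeR adjusted p = 0.0195), SLC2A2 at −2.67 ± 0.50 (0.00406) and GCKR at −2.14 ± 0.35 (0.00181), which made 3 of 6 called lower against 8.08% of all genes called. The G6PC2 call was lost when any 1 of the 5 libraries was left out (adjusted p = 0.0582 to 0.115), and the SLC2A2 and GCKR calls held. This comparison uses the same WT BFP libraries as those of the knockouts.

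PAX6 KO ISL1 OE libraries had less channel RNA than PAX6 KO BFP. KCNJ11 had 20.2, 20.4 and 20.1 CPM against 32.5, 24.3 and 37.4, and ABCC8 had 223, 254 and 160 CPM against 373, 308 and 407. Neither gene's groups overlapped, with log2 fold changes of −0.63 ± 0.18 for KCNJ11 (unadjusted p = 0.00254, edgeR adjusted p = 0.165) and −0.77 ± 0.27 for ABCC8 (0.00988 and 0.274). GCKR lay above its BFP range at 1.05, 0.878 and 0.852 CPM (0.67 ± 0.33, edgeR adjusted p = 0.477). In TPM GCKR overlapped its BFP range, with 0.74 to 1.65 against 0.67 to 1.39. G6PC2 had 0, 0 and 1 counts, so it was at the floor in both groups and no fold is given. SLC2A2 (2.10, 3.44 and 0.816 CPM) and SLC2A1 (249, 230 and 274 CPM) overlapped their BFP values. EdgeR called 0 of 6, with 3 at an unadjusted p under 0.05 (SLC2A2, ABCC8 and KCNJ11), DESeq2 called 1 (KCNJ11, adjusted p = 0.0326) and limma 0, against 0.415% of all genes called. Without PAX6 KO ISL1 OE replicate 3 and PDX1 KO ISL1 OE replicate 4, KCNJ11 passed in edgeR (adjusted p = 0.0458).

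In PDX1 KO the ISL1 OE libraries held more SLC2A2. They had 13.6 CPM in replicate 2 and 11.6 CPM in replicate 4, above the 1.64 to 3.78 CPM of PDX1 KO BFP and below the WT BFP values. In TPM SLC2A2 was 9.12 in replicate 2 and 2.80 in replicate 4, against 0.893 to 2.52 in PDX1 KO BFP. The log2 fold change was 2.40 ± 0.50 (edgeR adjusted p = 0.00595), and the call held when any 1 of the 5 libraries was left out (2.20 to 2.91). G6PC2 was called too (3.93 ± 0.83, adjusted p = 0.00794), but on 1 library: replicate 4 had 42.8 CPM, and replicate 2 had 1.10 CPM, below all 3 BFP libraries. Without replicate 4 the G6PC2 difference was −0.36 on the log2 scale. GCKR (1.81 and 1.77 CPM) lay above and KCNJ11 (19.9 and 20.9 CPM) below the BFP range without passing (0.93 ± 0.35, adjusted p = 0.0827, and −0.51 ± 0.20, adjusted p = 0.0970). In TPM GCKR was 2.78 in replicate 2 and 1.29 in replicate 4, above and below the 1.67 to 1.88 of BFP. SLC2A1 (139 and 99.7 CPM) and ABCC8 (256 and 383 CPM) overlapped their BFP values. Thus 2 of 6 members were called higher, against 14.4% of all genes called in this comparison. In an edgeR fit of these groups alone 0 passed (SLC2A2 2.44, adjusted p = 0.229), and limma on TPM called 0. Liver markers summed to 3931 to 4648 CPM in PDX1 KO BFP, with 7 of 10 called higher in PDX1 KO ISL1 OE. There they summed to 6892 CPM in replicate 2 and 25040 CPM in replicate 4, the library with the lower SLC2A2 of the pair. The part of the liver markers in the SLC2A2 rise was not tested.

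**Figure D3:**
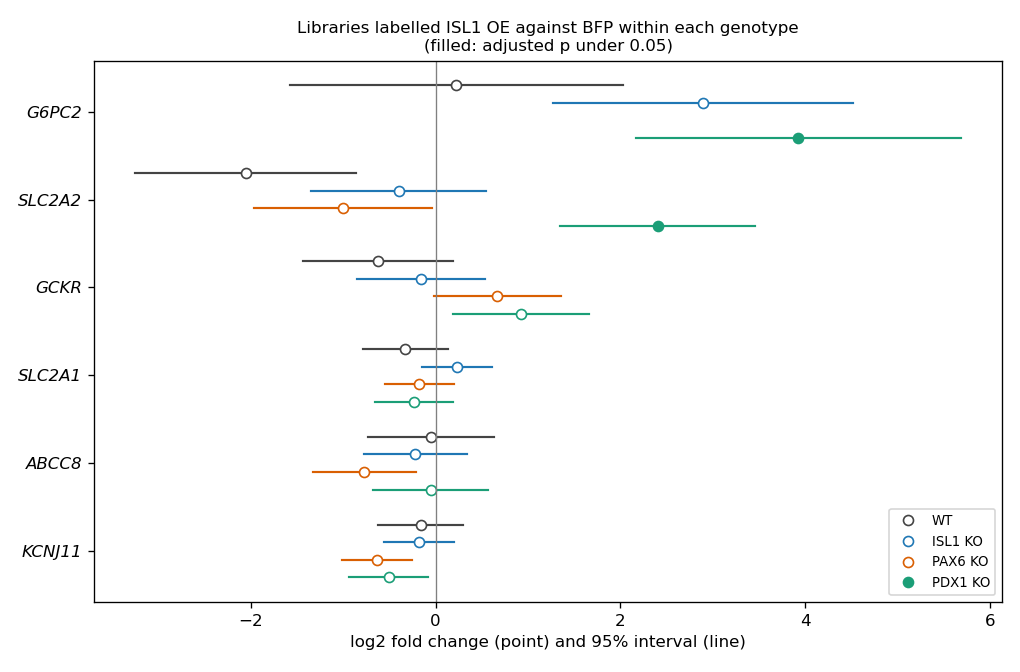
log2 fold change of each gene (horizontal axis) between libraries labelled ISL1 OE and BFP in WT and each of the 3 knockouts, with 95% intervals as lines and filled points at an adjusted p under 0.05. SLC2A2 is at −2.06 in WT and 2.40 in PDX1 KO; G6PC2 in PAX6 KO is not drawn because it had 0 to 1 counts per library.

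The opposite SLC2A2 differences in WT and PDX1 KO were tested against each other. The vector difference in PDX1 KO exceeded that in WT by 4.46 ± 0.76 on the log2 scale (edgeR adjusted p = 0.00887), and SLC2A2 was the 1 member called, against 1.37% of all genes. The call was lost without WT ISL1 OE replicate 1 (adjusted p = 0.107) or replicate 2 (0.0762), with 4.26 to 4.96 over all 9 libraries left out in turn, and in a fit of these 4 groups alone (4.50, adjusted p = 0.156). The corresponding values for G6PC2 and GCKR in PDX1 KO were 3.71 ± 1.19 (adjusted p = 0.139) and 1.55 ± 0.52 (0.147); without PDX1 KO ISL1 OE replicate 4 the G6PC2 value was −0.59. In ISL1 KO against WT edgeR called 0 of 6, with 2 at an unadjusted p under 0.05 (G6PC2 at 2.67 ± 1.14 and SLC2A2 at 1.66 ± 0.71), DESeq2 and limma called 0, and 0.00451% of all genes were called. In PAX6 KO against WT edgeR called 0 of 6, with 1 at an unadjusted p under 0.05 (GCKR at 1.29 ± 0.50), and DESeq2 and limma called 0. Of all genes 0% were called in that comparison by edgeR, with 750 at an unadjusted p under 0.05, 10 called by DESeq2 and 1 by limma.

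The order of the 8 groups differed between the genes. For G6PC2 both WT groups came first with overlapping ranges, then PDX1 KO ISL1 OE with its widely spread libraries, ISL1 KO ISL1 OE, PDX1 KO BFP and ISL1 KO BFP, and the PAX6 KO groups last. The PDX1 KO ISL1 OE range held all of ISL1 KO ISL1 OE and PDX1 KO BFP, and PDX1 KO BFP overlapped ISL1 KO BFP. For SLC2A2 the WT BFP group (25.2 ± 2.30 CPM) stood above PDX1 KO ISL1 OE (12.6 ± 1.38), and from WT ISL1 OE (6.05 ± 0.134) down to PAX6 KO ISL1 OE (2.12 ± 1.31) each group overlapped the next. For GCKR the groups stepped down without overlap from WT BFP (2.41 ± 0.125 CPM) through PDX1 KO ISL1 OE (1.79 ± 0.0348), WT ISL1 OE (1.57 ± 0.0291) and PDX1 KO BFP (0.941 ± 0.0577), which overlapped PAX6 KO ISL1 OE (0.927 ± 0.108). The other 3 GCKR groups, both of ISL1 KO and PAX6 KO BFP, lay below these and overlapped each other. The GCKR steps without overlap were seen in CPM only. In TPM, PDX1 KO ISL1 OE (1.29 to 2.78) overlapped WT BFP (1.97 to 2.30), WT ISL1 OE (1.38 to 1.975) and PDX1 KO BFP (1.67 to 1.88). For SLC2A1 the PAX6 KO groups (283 ± 30.2 CPM with BFP and 251 ± 22.4 with ISL1 OE) lay above the rest, and the other 6 groups overlapped their neighbours from 176 ± 17.7 CPM in ISL1 KO ISL1 OE to 119.4 ± 27.9 CPM in PDX1 KO ISL1 OE. For ABCC8 each group overlapped the next, from 613 ± 41.1 CPM in WT BFP to 319.6 ± 89.8 CPM in PDX1 KO ISL1 OE, and PAX6 KO ISL1 OE (212 ± 47.4) was below all of these. For KCNJ11 the lowest groups were PDX1 KO ISL1 OE (20.4 ± 0.763 CPM) and PAX6 KO ISL1 OE (20.2 ± 0.146), which overlapped each other and lay below all other libraries.

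The ratio of both transporter RNAs was higher in the knockouts than in WT BFP. The log2 ratio of SLC2A1 to SLC2A2, from TPM plus 0.1, was 2.97 ± 0.25 in WT BFP, 5.24 ± 0.69 in ISL1 KO BFP, 6.51 ± 0.87 in PAX6 KO BFP and 6.26 ± 0.49 in PDX1 KO BFP. In the ISL1 OE libraries it was 3.51 ± 0.11 in PDX1 KO, 4.80 ± 0.07 in WT, 5.82 ± 0.32 in ISL1 KO and 7.21 ± 1.13 in PAX6 KO. The PDX1 KO ISL1 OE libraries were the knockout libraries nearest to WT BFP in this ratio, and all ratios favoured SLC2A1. In replicate 4 both genes were below WT BFP: SLC2A1 was at 31.1 TPM and SLC2A2 at 2.80 TPM, against WT BFP means of 101.3 and 12.8. In replicate 2 SLC2A1 was at 110.8 TPM, within the WT BFP range, and SLC2A2 at 9.12 TPM, below it. The log2 ratio of ABCC8 to KCNJ11 stayed within a narrower range, from 3.18 ± 0.05 in PDX1 KO BFP and 3.26 ± 0.18 in PAX6 KO BFP to 3.91 ± 0.32 in WT BFP and 4.09 ± 0.20 in WT ISL1 OE. PDX1 KO ISL1 OE was the exception, with 3.43 in replicate 2 and 5.22 in replicate 4. KCNJ11 was at 12.8 and 4.99 TPM in these libraries, but at 19.9 and 20.9 CPM. ABCC8 was at 138 and 190 TPM, and at 256 and 383 CPM. The ratios are descriptions and were not tested.

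**Figure D4:**
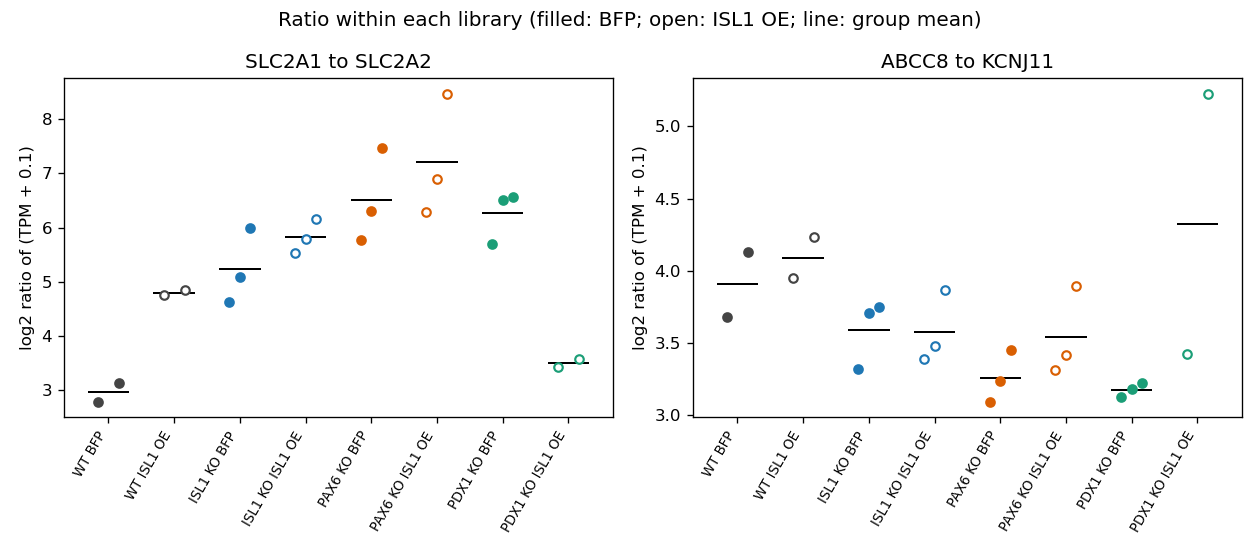
log2 ratio of SLC2A1 to SLC2A2 and of ABCC8 to KCNJ11 (vertical axes, from TPM plus 0.1) in each library (filled for BFP, open for ISL1 OE) of the 8 groups, with the group mean as a line. The transporter ratio is 2.79 to 3.14 in WT BFP and 4.63 or higher in every knockout BFP library.

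Deposited transcript estimates show which isoforms carried these counts. For SLC2A2 the coding transcript SLC2A2-201 held 77.03% of the gene's counts in WT BFP and 83.8% to 91.6% in the knockout BFP groups, and for KCNJ11 the coding KCNJ11-201 held 87.3% to 90.3% in those groups. The most abundant coding transcript of G6PC2 held 82.6% of G6PC2 counts in WT BFP and 62.2% in ISL1 KO BFP, where the gene had 228 counts in all. For SLC2A1 most counts were assigned to SLC2A1-208, annotated as subject to nonsense-mediated decay (79.8% in PAX6 KO BFP to 85.0% in PDX1 KO BFP), and 14.1% to 19.9% to the coding SLC2A1-203. ABCC8 has 54 annotated transcripts with estimates, and its retained-intron form ABCC8-208 held 13.1% of the counts in WT BFP and 3.82% in PDX1 KO BFP. Within PDX1 KO ISL1 OE that share was 4.84% in one library and 37.9% in the other, and within PAX6 KO ISL1 OE it ran from 6.46% to 27.8%. In GCKR the coding transcript GCKR-204 held 1.42% of counts in WT BFP and 21.1% in PDX1 KO BFP, from 33.5 estimated counts in the latter. Such splits are estimates over overlapping isoforms and were not tested.

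Across the 21 libraries the channel subunits varied together. ABCC8 and KCNJ11 had a Pearson correlation of log2 CPM of 0.88, the highest of the 15 pairs, while G6PC2 and SLC2A1 had the lowest at −0.77. G6PC2 and SLC2A2 had 0.59. Libraries of a group share genotype and vector, so these values describe the differences between groups as much as those between libraries. Among genes with a mean log2 CPM of at least 2, those most like G6PC2 were FFAR1, a fatty acid receptor of beta cells (0.95), CHST9 (0.94) and PDZK1 (0.94). SLC2A2 was most like the zinc transporter gene SLC39A5 (0.92), ADGRG7 (0.91) and PRKCZ (0.90), and GCKR like the junction genes F11R (0.87) and CLDN4 (0.86) and like NCOA7 (0.87). SLC2A1 was most like ZBTB16 (0.89), MSL3 (0.88) and NEUROG3, the endocrine progenitor factor (0.88). ABCC8 was most like NPTX2 (0.89), ZADH2 (0.88) and KCNJ11, and KCNJ11 like ABCC8, VAV3 (0.85) and CCDC85A (0.85).

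The other genes of glucose entry and phosphorylation, a list of 22 of which 21 were tested, were called lower or not at all in the knockouts. In ISL1 KO 3 were called lower and 0 higher, in PAX6 KO 4 and 0, and in PDX1 KO 7 and 0. Of all genes tested 6.53%, 6.65% and 11.4% were called in these comparisons. The medians of the list were −0.54, −0.41 and −0.78 on the log2 scale, against 0.03, 0.00 and 0.02 over all genes tested. SLC2A3, the high-affinity GLUT3 gene, had 53.5 ± 4.59 CPM in WT BFP and was lower by log2 fold changes of −2.06, −1.33 and −1.67 in ISL1 KO, PAX6 KO and PDX1 KO (edgeR adjusted p = 3.5e-05, 0.00220 and 0.000314). HKDC1, a hexokinase family gene, was at −3.26, −2.39 and −3.51 (adjusted p = 0.00920, 0.0431 and 0.00396). G6PC, the liver paralog of G6PC2, had 0.192 CPM in one WT BFP library and 1.73 CPM in the other, and 0 counts in ISL1 KO BFP and PAX6 KO BFP (adjusted p = 0.0250 and 0.0265). Of the 94 counts in WT BFP most came from that 1 library, so no fold is given. In PAX6 KO the regulatory enzyme gene PFKFB2 fell (−1.45, adjusted p = 0.0141), and in PDX1 KO the fructose transporter gene SLC2A5 (−3.10, 0.00533) and the urate transporter gene SLC2A9 (−1.66, 0.0326). PFKFB2 (−1.11, 0.0355) and ADPGK (−0.65, 0.0488) fell in PDX1 KO as well.

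Of 17 other KATP family and stimulus-coupled channel genes, all tested, some rose and others fell. In ISL1 KO 2 were called higher and 3 lower, in PAX6 KO 2 and 1, and in PDX1 KO 3 and 3, with medians of −0.15, 0.20 and 0.38. Over all genes tested 6.53%, 6.65% and 11.4% were called, with medians of 0.03, 0.00 and 0.02. The genes of the other KATP channel type, ABCC9 (SUR2) and KCNJ8 (Kir6.1), fell in ISL1 KO (−3.37, adjusted p = 0.000272, and −3.27, 0.00379) and in PDX1 KO (−2.24, 0.00317, and −2.28, 0.0192). In WT BFP they had 4.50 ± 1.205 and 20.1 ± 4.57 CPM. KCNK16, the potassium leak channel TALK-1 of islet cells, fell in ISL1 KO (−1.32, 0.00105) and PAX6 KO (−1.11, 0.00487). CACNB3, a calcium channel subunit gene, rose in all 3 knockouts (1.46, 1.43 and 1.60, adjusted p = 0.0406, 0.0430 and 0.0176). In PDX1 KO KCNJ6 rose (1.06, 0.00672) and TRPM5 fell (−1.80, 0.0392). Between knockouts, ABCC9 (−2.32), CACNB2 (−1.33), KCNJ8 (−2.40) and SCN9A (−0.99) were called lower in ISL1 KO than in PAX6 KO, and KCNK16 (−1.22), SCN9A (−1.17) and CACNB2 (−1.11) lower in ISL1 KO than in PDX1 KO. KCNK16 was also called lower in PAX6 KO than in PDX1 KO (−1.01).

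Of 28 genes of fuel oxidation and ATP supply, all tested, 0 were called higher and 5 lower in ISL1 KO, 0 and 7 in PAX6 KO, and 3 and 5 in PDX1 KO. The medians were −0.34, −0.65 and −0.43. Over all genes tested the medians were 0.03, 0.00 and 0.02, and 6.53%, 6.65% and 11.4% were called. PCK2, the mitochondrial PEP carboxykinase gene, fell in all 3 (−1.63, −1.61 and −1.36, adjusted p = 0.00168, 0.00235 and 0.00394), as did HADH, a fatty acid oxidation gene that limits insulin release (−0.998, −1.18 and −1.31, adjusted p = 0.0463, 0.0210 and 0.00696). The malic enzyme gene ME1 fell in ISL1 KO (−1.08, 0.00103) and PAX6 KO (−0.64, 0.0337). PCK1, the cytosolic PEP carboxykinase gene, also fell in all 3 (−2.88, −2.90 and −2.97, adjusted p = 0.0367, 0.0341 and 0.0211). LDHA fell in PAX6 KO (−1.62, 0.0339) and PDX1 KO (−1.92, 0.00906). The 3 genes called higher, all in PDX1 KO, were the glycolytic ENO2 (1.56, 0.0125) and PFKM (1.07, 0.0263) and the glycerol phosphate dehydrogenase gene GPD1 (1.07, 0.0210).

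In the vector comparisons edgeR called 0 genes of these 3 lists in WT, ISL1 KO and PAX6 KO. At an unadjusted p under 0.05 there were 1, 0 and 5 genes of the glucose entry, channel and fuel lists in WT, 1, 2 and 3 in ISL1 KO, and 4, 1 and 6 in PAX6 KO. Of all 22184 genes tested, 844, 1758 and 2379 were under that p in WT, ISL1 KO and PAX6 KO. DESeq2 called 0, 1 and 1 lower in ISL1 KO and 0, 0 and 2 lower in PAX6 KO, and limma called 0. Fits of the groups alone called 2 glucose entry and 3 fuel genes lower in WT, and 2 channel and 5 fuel genes lower and 2 fuel genes higher in ISL1 KO. In PDX1 KO 2 glucose entry genes were higher and 1 lower, 1 channel gene was higher and 2 lower, and 4 fuel genes were higher and 3 lower, beside the 14.4% of all genes called in this comparison. There SLC2A5 (2.16, adjusted p = 0.0333), SLC2A9 (1.60, 0.0341), TRPM5 (1.91, 0.0276) and LDHB (1.54, 0.00485) rose, and SLC2A6 (−0.94, 0.0208), KCNJ6 (−1.45, 0.00130), ENO2 (−1.59, 0.0118) and PFKM (−1.24, 0.0127) fell. In an edgeR fit of the PDX1 KO groups alone 0 genes of the 3 lists passed.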

How the data were processed

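Bulk RNA of 21 libraries was measured. Per the labels' protocols, RNA came from a Zymo Quick-RNA kit and libraries from SMART-Seq v4 and KAPA EvoPrep kits. This chemistry marks neither strand nor single molecules. The authors deposited estimated counts per gene, and per transcript, for each library and lane, and TPM values per gene. The submitters' processing notes name STAR and GRCh38. The program that made these estimates, not given in the sources used here, decides how reads shared between genes or isoforms were split. Left out were 12 deposited columns, belonging to 3 libraries that no sample's labels name. A repeated column (1 name, identical values) was used once.

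The estimated gene counts of the 4 lanes of a library (lowest correlation between lanes 0.997) were summed and rounded, and TPM averaged. Symbols and coordinates came from GENCODE 29 (34390 of 38592 genes; the rest from a table of gene names). The main test was edgeR 4.0.16 under R 4.3.3 (filterByExpr, 22184 genes kept, TMM, 1 mean for each of 8 groups, quasi-likelihood F test), with Benjamini-Hochberg adjustment over all genes tested in each comparison and calls at an adjusted p under 0.05. All groups share the estimate of spread. Overlap of groups is a description and not a test, and the share of all genes without overlap is not given here. Ratios used log2 of TPM plus 0.1. Floors cover counting error only, since amplified copies count as reads. A simulated data set with known changes was used to check the fit.

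The 6 genes, the wider lists and the marker lists were chosen with earlier results of these data known. The text names the 6 genes, the 3 genes most correlated with each, up to 4 called genes per wider list and comparison by adjusted p, and the other members of any count of 5 or fewer, chosen after their values were seen. Some genes counted in the wider lists are not reported here by name. Alternatives were DESeq2 1.42.0, limma 3.58.1 on log2 of TPM plus 0.1, library size alone, no filter beyond 1 count, only the groups compared, each library left out and the replicate number as a block. Others were added after the data were seen: without PAX6 KO ISL1 OE replicate 3 and PDX1 KO ISL1 OE replicate 4, lane set as a term, lanes 1 to 4 only, and a replicate block over all groups. Within PAX6 KO, libraries with the same replicate number in the column names deviated together (r = 0.18, 0.38 and 0.35), so the numbers were taken to pair them, from this correlation and not from the labels; the block called 0 of the 6 genes there, as did the fit without it.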

Additional observations from a re-analysis of the deposited data

Results flagged for a closer look

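The difference between vector effects on SLC2A2 in PDX1 KO and in WT passed a test of the difference itself. It was 4.46 on the log2 scale, from 2.40 in PDX1 KO (2 of 2 ISL1 OE libraries above all 3 BFP libraries) and −2.06 in WT (2 of 2 below both BFP libraries). The WT part was not called on its own (edgeR adjusted p = 0.553). The call on the difference was lost without either WT ISL1 OE library and in a fit of the groups compared alone, and limma on TPM called 0 members. No group held 4 or more libraries, so single libraries were not screened within groups.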

How the results depend on the processing

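Counts of called members, out of 6, kept within 1.5 times under library size alone (where the median of all genes was 0.205, 0.236 and 0.131 in ISL1 KO, PAX6 KO and PDX1 KO, against 0.03, 0.00 and 0.02), under no filter beyond 1 count and with lane set as a term. For single genes, 1204 values under an alternative stayed on their side of the threshold (those not called could change sign), 33 gained and 55 lost the call, and 3 called values reversed, all of G6PC2 in the PDX1 KO vector comparison: −0.36 to 4.97 with 1 library left out (−0.36 without replicate 4), −0.37 without that library and PAX6 KO ISL1 OE replicate 3, and −0.47 with a replicate block over all groups, where replicate 4 occurs once. Elsewhere the cause was not tested.

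With limma on TPM the counts were 1 in ISL1 KO, 1 in PAX6 KO, 1 in ISL1 KO against PAX6 KO, 1 in PAX6 KO against PDX1 KO, and 0 in the PDX1 KO vector comparison and its difference from WT. With lanes 1 to 4 only, which leaves 1 WT BFP library, assumed to vary like the other groups, they were 0 in ISL1 KO, 1 in PAX6 KO, 0 in PDX1 KO, 0 in ISL1 KO against PAX6 KO, PAX6 KO against PDX1 KO, the PDX1 KO vector comparison and its difference from WT, and ISL1 KO ISL1 OE against WT BFP. Only the groups compared gave 5 in PDX1 KO, 3 in ISL1 KO against PDX1 KO, 1 in the WT and 1 in the ISL1 KO vector comparison, 1 in the difference of ISL1 KO from WT, and 0 in the PDX1 KO vector comparison and its difference from WT. DESeq2 gave 5 in PDX1 KO, 1 each in the ISL1 KO and PAX6 KO vector comparisons and 3 in the difference of PDX1 KO from WT. Without PAX6 KO ISL1 OE replicate 3 and PDX1 KO ISL1 OE replicate 4 the counts were 5 in PDX1 KO, 2 in ISL1 KO against PDX1 KO, and 1 in each of the 4 vector comparisons and in the difference of ISL1 KO from WT; called genes then made 28.5%, 28.8% and 33.3% of all genes in ISL1 KO, PAX6 KO and PDX1 KO. Leaving out 1 library gave 2 to 3 in ISL1 KO, 2 to 4 in PAX6 KO, 2 in PDX1 KO and in ISL1 KO ISL1 OE against WT BFP, 1 to 2 in the PDX1 KO vector comparison and 0 to 3 in its difference from WT.

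The replicate block within ISL1 KO, where the correlations of same-numbered libraries (0.17, 0.0992 and 0.31) do not all pass 0.1, called 0 members, and within PAX6 KO 0. A replicate block over all groups gave 5 in PDX1 KO, 1 each in the ISL1 KO and PAX6 KO vector comparisons and 0 in that of PDX1 KO. A pseudocount of 1 TPM moved 5 of 16 ratio values by more than 1 SD. With as few as 22 counts in a library, GCKR limits what depth can show.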
